A study of Mus musculus with 18 samples.

Results

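Strain differences in kidney RNA are described here for genes of the distal nephron, the downstream end of the kidney tubule that runs from the thick ascending limb through the distal convoluted and connecting tubules to the collecting duct. The 38 genes sought were chosen by name as markers or transporters of these segments, with earlier results of these data known. A single-gene spot on the arrays was found for 31 of them, through 32 spots, among 20218 features in all, of which 15095 are named genes. The sodium-potassium-chloride cotransporter Slc12a1, Wnk1, Kcnj10, Trpm6, Trpv5, Klk1 and the mineralocorticoid receptor Nr3c2 were not matched and are not analysed here. The series compared RNA pools of DBA/2J and C57BL/6J mice (DBA2/J and C57Bl/6J in the labels), a pair of inbred strains, on 18 two-colour arrays, 6 for whole brain, 6 for whole kidney and 6 for whole liver. Every array carried both strains, DBA/2J RNA with Alexa Fluor 647 and C57BL/6J RNA with Alexa Fluor 555 per the labels. Each pool combined 10 mice, or 9 in the case of liver. The labels used here name no age, sex or treatment.

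As background, the thick ascending limb reabsorbs salt without water and secretes uromodulin. The distal convoluted tubule reabsorbs salt through the thiazide-sensitive cotransporter Slc12a3, which the kinase Stk39 (SPAK) activates under the control of WNK kinases. In the collecting duct, principal cells take up sodium through the epithelial sodium channel and water through aquaporins under the control of aldosterone and vasopressin, and intercalated cells move acid, base and ammonia.

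All ratios are log2 of DBA/2J over C57BL/6J, so a positive value means more RNA in DBA/2J. No label states that direction, which is taken as likely from the order of strains and dyes. Glo1, of which DBA/2J is known to carry an extra copy, gave 0.62 ± 0.13 in brain, 0.79 ± 0.34 in kidney and 0.90 ± 0.15 in liver (SD, n = 6 arrays each). The strain and the dye cannot be told apart, because no dye swap was made. All arrays of a tissue shared 1 pair of pools, so p-values measure the spread between hybridisations and not between mice. Array medians of the deposited log2 ratios ran from -1.65 to 0.16. Spot intensity was not read directly but estimated from the whole numbers behind each deposited ratio. The ratios correlated across features with this intensity, at r from 0.612 to 0.709 on the kidney arrays. Kidney values are therefore given both after print-tip loess, which removes the trend of the ratio with intensity in each print block, and without loess, where each array was only centred on its median. In whole-organ RNA fewer cells of a type and less RNA per cell cannot be told apart.

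The distal nephron genes were mostly brightest on the kidney arrays. The percentile of spot intensity among all features was highest in kidney for 23 of 31 genes, against 31.6% of all features, and the median percentile of the 31 was 80.8 for kidney, 49.2 for brain and 31.5 for liver. Umod stood at percentile 99.5 in kidney, 67.1 in brain and 44.1 in liver. For Egf the percentiles were 97.7, 33.5 and 8.27 in the same order. Scnn1g, the gamma subunit of the sodium channel, stood at 67.7 in kidney and at 0.119 in brain and 10.8 in liver. The brain value of Scnn1g is uncertain. Its estimated log2 intensity there was 6.25, while the highest lower limit set by a brain array was 8.39. Other values had a like gap, among them Fxyd2 in liver (9.09 against 11.3) and Rhcg in brain (10.2 against 12.1). By this estimate most of the spots behaved as kidney genes, such uncertain values apart. The exceptions were Stk39, Aqp4, Sgk1 and Car2, highest in brain, and Kcnj1, Ptger3, Aqp2 and Hsd11b2, highest in liver. The Aqp2 spot, named for the vasopressin-regulated water channel of principal cells, was at percentile 99.5 in liver and 86.5 in kidney. That goes against its name, so its ratios are given as those of the spot named Aqp2. Kcnj1 stood at 79.9 in liver and 77.6 in kidney, and Hsd11b2 at 84.2 and 72.8. Whether any of these spots detects only the gene it is named for was not tested. Elf5 was dim in all 3 tissues, at percentile 17.5 in kidney. The deposited table has no background flags, and no feature was left out for being dim, so all 31 genes were tested.

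**Figure D1:**
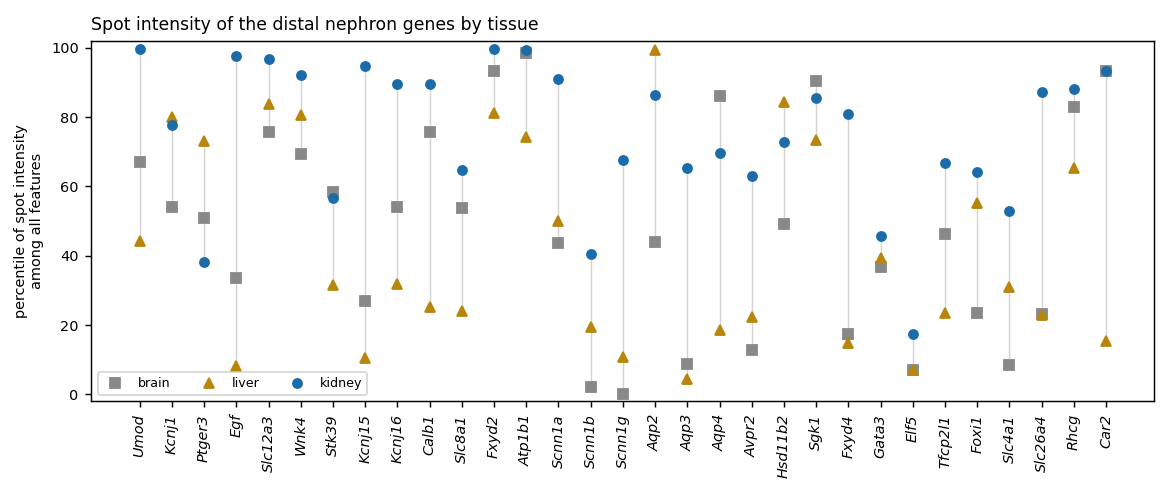
Percentile of spot intensity (y axis, among all 20218 features of a tissue) for the 31 distal nephron genes (x axis, in order along the nephron), with 1 symbol per tissue; each point comes from the 6 arrays of that tissue. Kidney was the highest of the 3 tissues for 23 genes, and the spot named Aqp2 was at percentile 99.5 in liver.

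In kidney after loess, 18 of the 31 genes differed between the strains (limma, Benjamini-Hochberg adjusted p under 0.05 over all features), against 39.8% of all features. Of these 5 were higher in DBA/2J (20.0% of all features were called higher) and 13 were lower (19.8% of all features were called lower). The higher genes were the kinase Stk39, the water channel Aqp4, the steroid dehydrogenase Hsd11b2, the potassium channel Kcnj15 and the sodium pump subunit Fxyd2. The lower genes were Umod, Kcnj1 and Egf of the thick ascending limb, Slc12a3 and Slc8a1 of the distal convoluted and connecting tubule, Scnn1a, Scnn1b, Scnn1g, Avpr2 and Sgk1 of principal cells, and Slc4a1, Slc26a4 and Rhcg of intercalated cells. The median over the 31 genes was -0.095, against 0.0029 over all features. All 6 arrays had the same sign for 15 genes (34.7% of all features), and for 20 genes without loess (52.9% of all features).

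Without loess the split turned round: 17 genes were higher and 6 lower, against 32.0% and 32.9% of all features, and the median was 0.25, against -0.0031 over all features. Together 23 of 31 were called, against 64.9% of all features. Most of the distal nephron genes are bright in kidney, where the uncorrected ratios of all features were high: the median without loess was -0.58 in the dimmest of 25 intensity bins and 0.83 in the brightest, against 0.024 and -0.014 with loess. The genes called in the same direction both ways numbered 9, against 23.0% of all features. Of these, Stk39, Aqp4, Hsd11b2, Kcnj15 and Fxyd2 were higher (10.2% of all features) and Kcnj1, Scnn1b, Avpr2 and Slc4a1 were lower (12.8% of all features). Egf, Slc12a3, Sgk1 and Rhcg were called in opposite directions, lower with loess and higher without it, as were 4.28% of all features. Umod, Scnn1a and Slc26a4 were lower with loess and not called without it, with the sign turned. With 1 loess curve per array in place of 1 per print block (global loess), the calls on Kcnj15, Fxyd2, Scnn1g and Sgk1 were lost. With the intensity left as the reduced deposited ratios give it, those on Egf, Slc12a3, Slc8a1, Fxyd2, Scnn1a, Sgk1, Slc26a4 and Rhcg were lost. Stk39, Aqp4, Hsd11b2, Kcnj1, Scnn1b, Avpr2 and Slc4a1 kept their direction and their call under both of these and without loess. Whether the trend with intensity comes from the dyes or from the RNA was not tested.

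**Figure D2:**
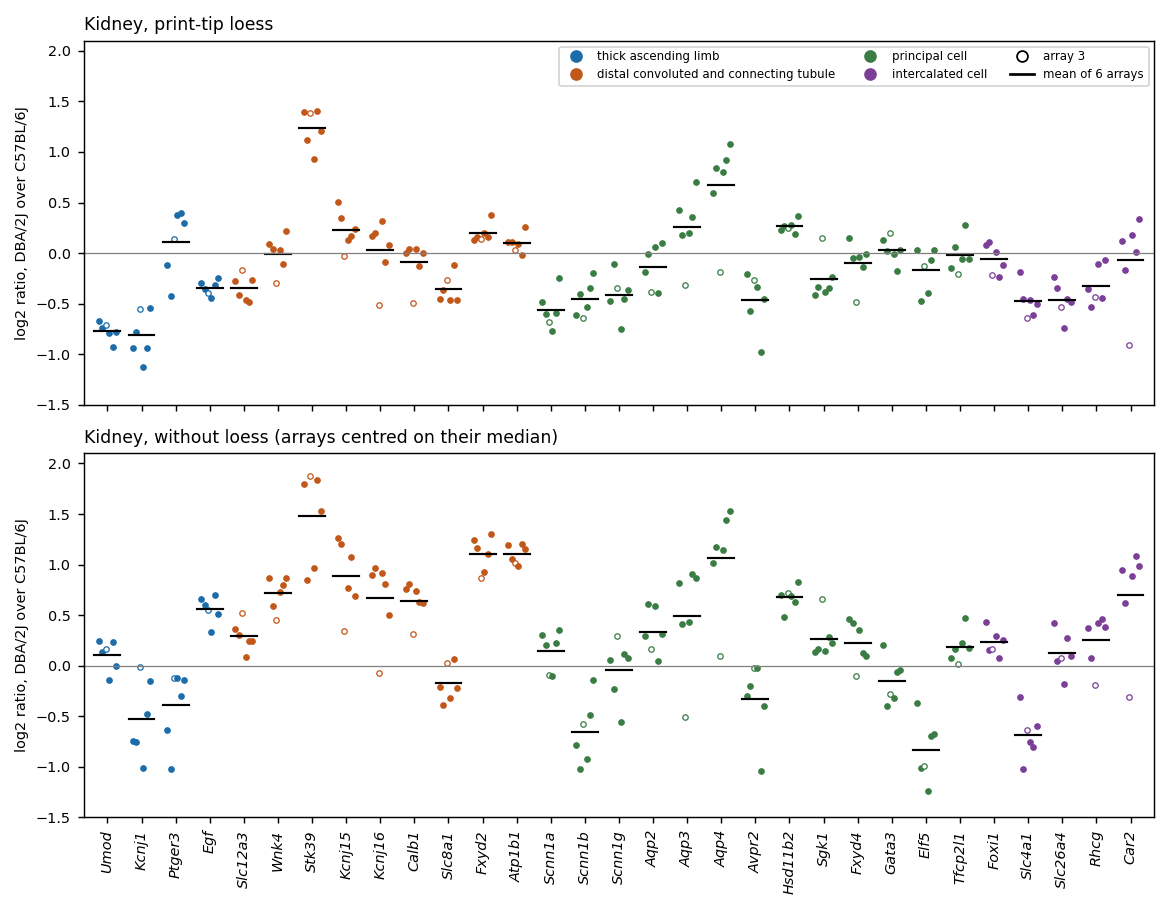
Log2 ratio of DBA/2J over C57BL/6J (y axis) on each of the 6 kidney arrays (points, array 3 open) for the 31 genes in order along the nephron (x axis, coloured by segment), after print-tip loess (top) and without loess (bottom); bars are means. Stk39 and Aqp4 stayed high and Kcnj1, Scnn1b, Avpr2 and Slc4a1 stayed low in both panels, while Umod moved from -0.77 to 0.11 and Egf from -0.34 to 0.56.

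**Figure D3:**
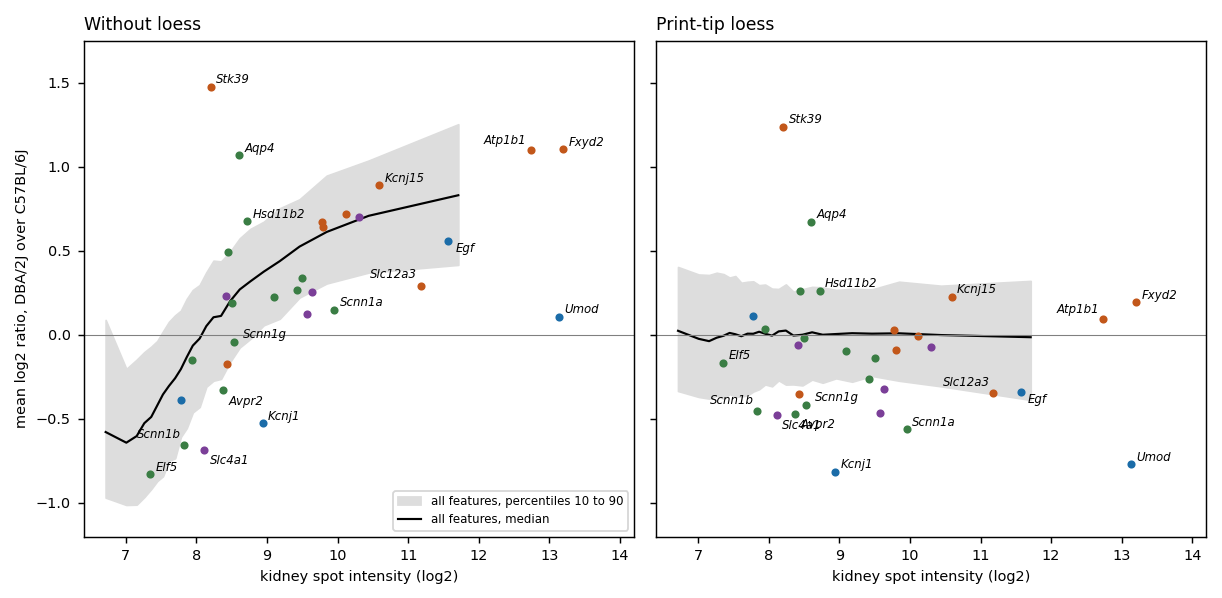
Mean kidney log2 ratio of DBA/2J over C57BL/6J (y axis, 6 arrays) against the log2 kidney spot intensity (x axis) for the 31 genes (points, coloured by segment as in the plot by array, some named) without loess (left) and with it (right). The line and band are the median and the range from percentile 10 to 90 of all features in 25 bins of intensity; without loess the line runs from -0.58 to 0.83, and Umod lies below it and Stk39 above it in both panels.

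Reference promoter sequence was available for 24 of the 31 genes (RefSeq, GRCm38.p6, which is C57BL/6J sequence; DBA/2J sequence was not analysed here). The 250 bases before the transcription start are shown for Stk39, the highest ratio, for Kcnj1 and Umod, the lowest ratios of the thick ascending limb, and for Sgk1, an aldosterone-induced kinase. Sgk1 has 6 starts listed, and the one shown was chosen because it holds the full receptor site described next. Capitals mark GTTAAT, a half-site of the kidney transcription factor HNF1, and AGAACA, a half-site of steroid hormone receptors, on either strand, and the full receptor site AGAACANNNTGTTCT, which contains the half-site in both orientations.
Stk39, chr2:68471982-68472231, minus strand: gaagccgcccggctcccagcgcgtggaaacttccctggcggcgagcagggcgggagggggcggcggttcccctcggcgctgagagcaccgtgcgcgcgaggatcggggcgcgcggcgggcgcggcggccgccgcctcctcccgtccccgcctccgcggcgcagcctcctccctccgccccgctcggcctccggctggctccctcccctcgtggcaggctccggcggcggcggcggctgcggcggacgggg
Umod, chr7:119479263-119479512, minus strand: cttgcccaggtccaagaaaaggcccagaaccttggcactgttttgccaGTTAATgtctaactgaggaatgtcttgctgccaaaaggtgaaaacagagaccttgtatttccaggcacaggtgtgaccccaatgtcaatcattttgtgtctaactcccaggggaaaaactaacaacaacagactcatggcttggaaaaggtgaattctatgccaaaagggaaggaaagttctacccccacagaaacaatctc
Kcnj1, chr9:32393735-32393984, plus strand: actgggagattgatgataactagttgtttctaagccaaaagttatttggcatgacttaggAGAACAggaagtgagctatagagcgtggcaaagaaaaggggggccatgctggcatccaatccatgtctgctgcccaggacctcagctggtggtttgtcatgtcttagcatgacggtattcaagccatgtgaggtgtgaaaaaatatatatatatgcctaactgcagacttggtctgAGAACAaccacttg
Sgk1, chr10:21993640-21993889, plus strand: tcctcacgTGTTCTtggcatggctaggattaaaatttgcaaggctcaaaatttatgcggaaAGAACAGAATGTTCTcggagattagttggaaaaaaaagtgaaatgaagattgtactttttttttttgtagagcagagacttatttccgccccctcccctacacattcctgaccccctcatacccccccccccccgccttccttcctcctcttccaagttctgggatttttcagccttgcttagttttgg
GTTAAT was found 202 to 197 bases before the start of Umod, and also before Kcnj16, in 2 of the 34 promoters listed for the 24 genes, against 6.43% of 32851 promoters. AGAACA was found in 8 of the 34 promoters, those of Kcnj1, Sgk1, Aqp2, Avpr2, Rhcg and Slc26a4, against 16.1% of all promoters. The full site was found 189 to 175 bases before 1 of the 6 starts listed for Sgk1, as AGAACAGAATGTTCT, and before 3 of all 32851 promoters (0.00913%). TATAAA, the core of the TATA box, was found in 8 of the 34 promoters, against 12.4% of all promoters. In the window shown for Stk39 none of these letters occur. These matches describe the reference letters only.

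Among the genes of the thick ascending limb, Umod and Kcnj1 had the lowest ratios of all 31 genes after loess. Umod, the gene for uromodulin, read -0.93 to -0.67 with a median of -0.76 over the 6 kidney arrays. Its mean was -0.77 ± 0.091 (SD, n = 6), 1.71-fold lower in DBA/2J (adjusted p = 1.74e-06, limma). All 6 arrays were below 0 and lay close together. Without loess Umod read -0.14 to 0.24 with a median of 0.15, with a mean of 0.11 ± 0.15 (adjusted p = 0.331, limma), and 4 of 6 arrays were above 0. The call on Umod therefore exists only with a loess correction. Kcnj1, the apical potassium channel ROMK, read -1.13 to -0.55 with a median of -0.86 with loess. Its mean was -0.81 ± 0.23, 1.76-fold lower (adjusted p = 1e-05, limma). Every array was below 0 with loess, and every array was below 0 without it, where the mean was -0.53 ± 0.39 (adjusted p = 0.00193, limma) and array 3 was at -0.0096.

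Egf, the growth factor precursor made in the thick ascending limb and distal convoluted tubule, read -0.44 to -0.24 with a median of -0.34 with loess, a mean of -0.34 ± 0.071 (adjusted p = 0.000817, limma). Without loess all 6 arrays were above 0, from 0.33 to 0.70, with a mean of 0.56 ± 0.13 (adjusted p = 9.2e-05, limma). The arrays were all on one side in each case, but on opposite sides. Ptger3, the EP3 prostaglandin receptor, was spread over both sides with loess, at 0.11 ± 0.32 and not called (adjusted p = 0.396, limma). Without loess it was called lower, at -0.39 ± 0.37 (adjusted p = 0.012, limma).

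Among the genes of the distal convoluted and connecting tubule, Stk39 had the highest ratio of all 31. Stk39, the kinase SPAK that phosphorylates Slc12a3, read 0.93 to 1.41 with a median of 1.29 with loess. Its mean was 1.24 ± 0.19, 2.36-fold higher in DBA/2J (adjusted p = 1.42e-07, limma). No array was below 0.93. Without loess Stk39 read 0.85 to 1.88 with a median of 1.66, a mean of 1.48 ± 0.46 (adjusted p = 8.42e-07, limma), and arrays 2 and 4 were the lower ones. Its substrate Slc12a3, the thiazide-sensitive cotransporter, read -0.48 to -0.17 with a median of -0.35 with loess, a mean of -0.35 ± 0.12 (adjusted p = 0.00129, limma). Without loess all 6 arrays of Slc12a3 were above 0, at 0.29 ± 0.15 (adjusted p = 0.0124, limma). Wnk4, a kinase that acts upstream of Stk39, was at -0.0048 ± 0.18 with loess (adjusted p = 0.966, limma) and was called higher without it, at 0.72 ± 0.17 (adjusted p = 1.42e-05, limma).

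Kcnj15 and Kcnj16 are inward rectifier potassium channels of the basolateral membrane. Kcnj15 read -0.03 to 0.50 with a median of 0.20 with loess, with array 3 the only one below 0, a mean of 0.23 ± 0.18 (adjusted p = 0.0278, limma). The call was lost when array 1, 2 or 6 was left out (adjusted p from 0.0584 to 0.107, limma). Without loess its mean was 0.89 ± 0.35 (adjusted p = 1.61e-05, limma). Kcnj16 was at 0.028 ± 0.30 with loess and not called (adjusted p = 0.84, limma), with array 3 at -0.51 and the other arrays from -0.087 to 0.32. Without loess Kcnj16 was called higher, at 0.67 ± 0.40 (adjusted p = 0.000335, limma).

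The sodium pump was represented by Fxyd2, its gamma subunit, and Atp1b1, its beta-1 subunit. Fxyd2 read 0.13 to 0.38 with a median of 0.16 with loess, all 6 arrays above 0 and array 6 the highest. Its mean was 0.19 ± 0.094, 1.15-fold higher (adjusted p = 0.0262, limma), and the call was lost without array 4 (adjusted p = 0.0618, limma) or array 6 (adjusted p = 0.0888, limma). Without loess the mean of Fxyd2 was 1.10 ± 0.17 (adjusted p = 4.9e-07, limma). Atp1b1 was at 0.097 ± 0.093 with loess and not called (adjusted p = 0.242, limma), and at 1.10 ± 0.093 without it (adjusted p = 3.24e-07, limma), every array then between 0.99 and 1.21.

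Of the calcium-handling genes of this segment, Slc8a1 was lower with loess and Calb1 was not called. Slc8a1, the sodium-calcium exchanger of the basolateral membrane, read -0.46 to -0.12 with a median of -0.41 with loess, a mean of -0.35 ± 0.14 (adjusted p = 0.00136, limma), and its 6 arrays were all below 0. Slc8a1 was the only gene of the 31 with 2 spots, which read -0.51 ± 0.19 and -0.19 ± 0.11 with loess, and -0.49 and 0.14 without it. The spots shared a sign with loess and differed in sign without it, where the mean of both was -0.17 ± 0.18 and was not called (adjusted p = 0.126, limma). Calb1, the cytosolic calcium buffer calbindin-D, was at -0.09 ± 0.21 with loess and not called (adjusted p = 0.388, limma). Array 3 alone was far from 0 for Calb1, at -0.50, and without that array the mean was -0.0084. Without loess Calb1 was called higher, at 0.64 ± 0.18 (adjusted p = 4.07e-05, limma).

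Among the genes of principal cells, RNA of the 3 subunits of the epithelial sodium channel, the route of aldosterone-controlled sodium uptake, was lower in DBA/2J with loess for every subunit, and only Scnn1b was also called without it. Scnn1a, the alpha subunit, read -0.77 to -0.25 with a median of -0.60, a mean of -0.56 ± 0.18 (adjusted p = 8.1e-05, limma). For Scnn1b, the beta subunit, the range was -0.64 to -0.20 with a median of -0.47 and the mean -0.45 ± 0.17 (adjusted p = 0.000325, limma). Scnn1g read -0.75 to -0.11 with a median of -0.41, a mean of -0.42 ± 0.21 (adjusted p = 0.0011, limma). None of the 18 values of these genes was above 0 with loess. Without loess the means were 0.15 ± 0.20 for Scnn1a (adjusted p = 0.195, limma), -0.66 ± 0.32 for Scnn1b (adjusted p = 0.000162, limma) and -0.042 ± 0.31 for Scnn1g (adjusted p = 0.758, limma). Scnn1a changed sign, Scnn1g lost its call, and Scnn1b was below 0 on every array both ways. Its spot was dimmer than those of its partners relative to all features, at kidney percentile 40.4, against 90.8 for Scnn1a and 67.7 for Scnn1g.

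Among the water channels, Aqp4 of the basolateral membrane was higher in DBA/2J, with loess on all arrays but array 3. It read -0.19 to 1.08 with a median of 0.82 with loess, where array 3 was the low value and the other 5 arrays lay between 0.60 and 1.08. The mean was 0.67 ± 0.45, 1.6-fold higher (adjusted p = 0.00107, limma), and without array 3 it was 0.85. Without loess the mean of Aqp4 was 1.07 ± 0.52 (adjusted p = 2.22e-05, limma), with array 3 at 0.092. Aqp3, the other basolateral water channel, was at 0.26 ± 0.34 with loess and missed the threshold (adjusted p = 0.0595, limma). Array 3 was again the only one below 0 for Aqp3, at -0.32, and without it Aqp3 was called higher, at 0.38 (adjusted p = 0.00416, limma). Without loess Aqp3 was called higher with all 6 arrays, at 0.49 ± 0.53 (adjusted p = 0.0109, limma). The spot named Aqp2 was at -0.14 ± 0.22 with loess and not called (adjusted p = 0.191, limma), and was called higher without it, at 0.34 ± 0.23 (adjusted p = 0.00917, limma).

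Avpr2, the V2 receptor through which vasopressin acts on these cells, was lower in DBA/2J both ways. It read -0.98 to -0.20 with a median of -0.39 with loess, with array 5 the lowest, a mean of -0.47 ± 0.28, 1.38-fold lower (adjusted p = 0.00143, limma). Without loess Avpr2 was at -0.33 ± 0.38 (adjusted p = 0.0299, limma), all 6 arrays below 0 but arrays 3 and 4 close to it, at -0.018 and -0.023. Hsd11b2, the enzyme that inactivates glucocorticoids and so keeps the mineralocorticoid receptor for aldosterone, read 0.19 to 0.36 with a median of 0.26 with loess. Its mean was 0.26 ± 0.059, 1.2-fold higher (adjusted p = 0.00412, limma). The Hsd11b2 arrays lay close together and above 0, and without loess the mean was 0.68 ± 0.11 (adjusted p = 1.58e-05, limma).

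Sgk1, the aldosterone-induced kinase, read -0.42 to 0.15 with a median of -0.34 with loess, a mean of -0.26 ± 0.21 (adjusted p = 0.0187, limma). Array 3 was the only one above 0. The call on Sgk1 was lost without array 1, 2 or 4 (adjusted p from 0.0504 to 0.0644, limma), and without loess it was called higher, at 0.27 ± 0.20 (adjusted p = 0.0263, limma). Fxyd4, a sodium pump regulator of the collecting duct, was not called either way, at -0.095 ± 0.21 with loess and 0.23 ± 0.22 without it. The transcription factors Gata3, Elf5 and Tfcp2l1 were not called with loess, at 0.034, -0.17 and -0.021. Without loess, of these 3 only the dim Elf5 was called, lower at -0.83 ± 0.31 (adjusted p = 1.81e-05, limma).

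Among the genes named for intercalated cells, whole-kidney RNA of the transporters Slc4a1, Slc26a4 and Rhcg was lower in DBA/2J with loess, and that of Slc4a1 also without it. Slc4a1, the chloride-bicarbonate exchanger AE1 of acid-secreting cells, read -0.64 to -0.19 with a median of -0.48 with loess, a mean of -0.48 ± 0.16, 1.39-fold lower (adjusted p = 0.00021, limma). All 6 arrays were below 0 with loess and without it, where the mean was -0.69 ± 0.24 (adjusted p = 4.27e-05, limma). Slc4a1 is also the band 3 protein of red cells. Of 7 other erythrocyte markers 2 were higher and 2 lower in kidney with loess, against 20.0% and 19.8% of all features. The alpha-globin gene Hba-a1 was lower, at -0.67 ± 0.27, and the transcription factor Gata1 was lower, at -0.18 ± 0.084. Rhag, of the red-cell membrane, was higher, at 0.23 ± 0.12, and the transcription factor Klf1 was higher, at 0.29 ± 0.27. Without loess these 4 were at 0.53, -0.29, 0.43 and -0.092 in that order. Alas2, Epb42 and Ank1 were not called with loess, at -0.14 ± 0.13, 0.023 ± 0.21 and -0.19 ± 0.22. Their part in the Slc4a1 ratio was not tested.

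Slc26a4, the chloride-bicarbonate exchanger pendrin of base-secreting cells, read -0.74 to -0.23 with a median of -0.47 with loess, a mean of -0.47 ± 0.17 (adjusted p = 0.000295, limma). Without loess it was at 0.12 ± 0.20 and not called (adjusted p = 0.292, limma). Rhcg, an ammonia channel, read -0.54 to -0.071 with a median of -0.39 with loess, a mean of -0.32 ± 0.19 (adjusted p = 0.00452, limma), and was called higher without it, at 0.25 ± 0.26 (adjusted p = 0.0466, limma). Foxi1, the transcription factor that specifies intercalated cells, was at -0.061 ± 0.15 with loess and not called (adjusted p = 0.519, limma). Without loess Foxi1 was called higher, at 0.23 ± 0.12 (adjusted p = 0.0387, limma). Car2, cytosolic carbonic anhydrase, was at -0.072 ± 0.44 with loess and not called (adjusted p = 0.679, limma), with array 3 at -0.91 and the others from -0.17 to 0.33. Without loess Car2 was called higher, at 0.70 ± 0.52 (adjusted p = 0.000811, limma).

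The extreme values of the 31 genes were not spread evenly over the kidney arrays. Array 3 gave the lowest value of 11 genes with loess and of 11 without it, against 18.8% and 17.8% of all features. Array 6 gave the highest value of 14 genes with loess and of 6 without it, against 17.4% and 13.1% of all features. Without array 3, 6 genes were called higher, among them Aqp3, and 13 lower with loess, against 19.1% and 18.8% of all features.

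The ratios of genes near each other in order of brightness were also set against each other on the same array, as a description. The 6 pairs within the 3 brightest genes and within the next 3 were taken, with Kcnj1 and Aqp4 as a further pair chosen after its values were seen. The next 3 were Egf at 11.6, Slc12a3 at 11.2 and Kcnj15 at 10.6 on the log2 scale, so Kcnj15 was not closely matched to Egf. Fxyd2 and Umod were nearly equally bright, at 13.2 and 13.1 on the log2 scale. The log2 ratio of Fxyd2 exceeded that of Umod by 0.96 ± 0.14 with loess and 0.997 ± 0.20 without it (SD, n = 6 arrays), and did so on 6 of 6 arrays both ways. Umod minus Atp1b1, at 12.7 the next brightest, was -0.87 ± 0.11 with loess and -0.99 ± 0.12 without it, below 0 on 6 of 6 arrays. Umod was thus low relative to both sodium pump subunits under either treatment, although its own sign was not fixed. Loess shifted the mean ratios of these bright genes alike, by -0.88 for Umod, -0.91 for Fxyd2 and -1.004 for Atp1b1. Similar differences with and without loess therefore had to result, and their agreement is no separate support. Fxyd2 minus Atp1b1 was 0.098 ± 0.056 with loess, above 0 on 6 of 6 arrays, and 0.0028 ± 0.12 without it, above 0 on 3. Kcnj1 minus Aqp4 was -1.49 ± 0.57 with loess and -1.595 ± 0.75 without it, again below 0 on 6 of 6 arrays. Slc12a3 minus Kcnj15 was -0.57 ± 0.24 with loess and -0.60 ± 0.42 without it, below 0 on 6 of 6 and 5 of 6 arrays. Egf minus Kcnj15 was -0.57 ± 0.16 with loess and -0.33 ± 0.31 without it, also below 0 on 6 of 6 and 5 of 6 arrays. Egf minus Slc12a3 was 0.005 ± 0.13 with loess, above 0 on 4 of 6 arrays, and 0.27 ± 0.14 without it, above 0 on 6 of 6. The differences of Fxyd2 from Atp1b1 and of Egf from Slc12a3 thus moved with the treatment, although the genes of each pair were close in brightness. Kcnj1 and Aqp4 were shifted alike by loess, by -0.29 and -0.39, as were Slc12a3 and Kcnj15, by -0.64 and -0.66. For these pairs too, agreement between the treatments is no separate support.

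Brain and liver hold no nephrons, so the same spots there show the strain ratio of each spot outside the kidney tubule. In brain 1 of 31 genes was called after loess, against 13.7% of all features. This was Car2 (7.37% of all features were called higher), abundant in oligodendrocytes, which read 0.029 to 0.69 with a median of 0.33 and averaged 0.34 ± 0.22 (adjusted p = 0.0242, limma). Its call was lost without brain array 3, 4 or 5 (adjusted p from 0.0530 to 0.0808, limma). No gene was called lower in brain (limma; 4 had an unadjusted p under 0.05, namely Aqp4, Avpr2, Kcnj1 and Sgk1), against 6.29% of all features. Without loess 5 were called in brain, Car2 higher and Scnn1b, Avpr2, Elf5 and Slc4a1 lower, against 17.5% of all features (8.21% higher and 9.32% lower).

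In liver 8 of 31 genes were called after loess, 3 higher and 5 lower, against 23.1% of all features (11.0% higher and 12.1% lower). Stk39 was higher there too, reading 0.36 to 0.86 with a median of 0.75, a mean of 0.68 ± 0.19 (adjusted p = 0.000145, limma). Atp1b1 read 0.37 to 0.83 with a median of 0.66, a mean of 0.64 ± 0.19 (adjusted p = 0.000214, limma). Both were above 0 on 6 of 6 liver arrays. Foxi1 was at 0.33 ± 0.31 (adjusted p = 0.0313, limma), a call lost without liver array 1, 2, 3 or 6 (adjusted p from 0.0630 to 0.0900, limma). Ptger3 read -2.06 to -0.43 with a median of -0.87, a mean of -1.12 ± 0.70 (adjusted p = 0.00221, limma), with arrays 1 and 4 far below the others. Of the other lower genes, Car2 was at -0.67 ± 0.26, Kcnj1 at -0.56 ± 0.17, Slc4a1 at -0.40 ± 0.17 and Scnn1b at -0.28 ± 0.14, and every liver array of these was below 0. The Car2 and Scnn1b spots were dim in liver, at percentiles 15.5 and 19.5. The Scnn1b call was lost without liver array 3 (adjusted p = 0.0522, limma). Without loess 12 were called in liver, these 8 in the same direction and also Wnk4 higher and Avpr2, Gata3 and Elf5 lower, against 24.9% of all features (11.7% higher and 13.2% lower).

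**Figure D4:**
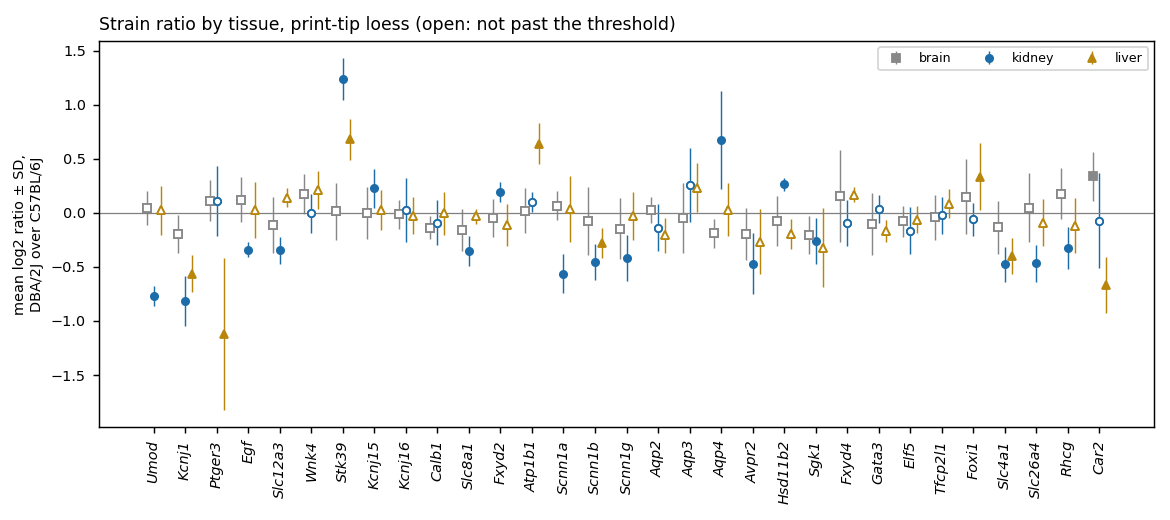
Mean log2 ratio of DBA/2J over C57BL/6J after print-tip loess (y axis) with its SD over 6 arrays in brain, kidney and liver for the 31 genes (x axis, in order along the nephron); filled symbols passed the threshold in that tissue. With loess, 18 genes are filled in kidney, 8 in liver and 1 in brain; Stk39 is filled in kidney and liver, and Kcnj1, Slc4a1 and Scnn1b are filled and below 0 in both.

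The difference between tissues was tested directly, and a ratio that a spot carries in every tissue cancels in it. Kidney minus brain and kidney minus liver use the same kidney arrays. Against brain 11 of 31 genes differed with loess, 3 higher and 8 lower (22.6% of all features, 10.8% higher and 11.7% lower). Against liver 14 differed, 6 higher and 8 lower (18.2% of all features, 10.3% higher and 7.94% lower). Without loess the counts were 12 higher and 0 lower against brain (17.6% of all features each way, 35.2% together; 1 gene, Scnn1b, was lower at an unadjusted p under 0.05, limma), and 14 higher and 1 lower against liver (21.9% and 24.1%, or 45.9% together). No gene called lower with loess in either contrast was called lower in it without loess.

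The strain ratio of Stk39 was higher in kidney than in brain by 1.23 ± 0.12 (SE; adjusted p = 1.87e-07, limma) and than in liver by 0.56 ± 0.12 (adjusted p = 0.00217, limma). Without loess the differences of Stk39 were 1.36 and 0.72, both called. Aqp4 differed by 0.86 ± 0.16 from brain (adjusted p = 0.000399, limma) and by 0.64 ± 0.16 from liver (adjusted p = 0.00518, limma). Without loess the Aqp4 differences were 1.15 and 1.04, both called. Hsd11b2 differed by 0.34 ± 0.10 from brain (adjusted p = 0.02, limma) and by 0.46 ± 0.10 from liver (adjusted p = 0.00274, limma). For Hsd11b2 the values without loess were 0.70 and 0.75, both called, and the call against brain was lost with loess when brain array 5 was left out (adjusted p = 0.0583, limma).

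The kidney ratio of Umod was the lower one, differing by -0.82 ± 0.10 from brain (adjusted p = 8.21e-06, limma) and by -0.80 ± 0.10 from liver (adjusted p = 6.35e-06, limma). Without loess these differences were -0.038 and 0.019 and not called. Scnn1a differed by -0.63 ± 0.12 from brain (adjusted p = 0.000793, limma) and by -0.60 ± 0.12 from liver (adjusted p = 0.00127, limma), and at 0.063 and 0.058 without loess, not called. Kcnj1 differed by -0.62 ± 0.11 from brain (adjusted p = 0.000461, limma) and by -0.32 without loess, not called. Against liver, where the ratio of Kcnj1 was itself below 0, it differed by -0.25 ± 0.11 (adjusted p = 0.13, limma). Slc4a1 and Scnn1b likewise were called against brain, at -0.34 ± 0.11 (adjusted p = 0.0327, limma) and -0.38 ± 0.12 (adjusted p = 0.0278, limma), and not against liver, at -0.077 ± 0.11 and -0.17 ± 0.12. Without loess their differences from brain were -0.27 and -0.32, not called. With the intensity left unrestored both calls were lost, as were those on Egf, Scnn1a, Slc26a4 and Rhcg against brain, and with global loess that on Scnn1b. The call on Slc4a1 was lost when any of 6 arrays was left out, brain array 1 or 4 or kidney array 3, 4, 5 or 6 (adjusted p from 0.0516 to 0.0789, limma). The call on Scnn1b was lost without brain array 4 or kidney array 1, 3 or 4 (adjusted p from 0.0537 to 0.0732, limma). Avpr2, lower in kidney with and without loess, was called in neither contrast. It differed by -0.27 ± 0.14 from brain (adjusted p = 0.174, limma) and by -0.20 ± 0.14 from liver (adjusted p = 0.343, limma). Without loess the Avpr2 differences were 0.040 and -0.0065, not called.

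Against liver alone, Ptger3 was higher in kidney by 1.23 ± 0.22 (adjusted p = 0.000303, limma) and Car2 by 0.60 ± 0.16 (adjusted p = 0.0117, limma), and both were also called higher without loess, at 0.69 and 1.41. In both cases the liver ratio was below 0, and the Car2 spot was dim in liver. Atp1b1 had the lower ratio in kidney, differing by -0.54 ± 0.10 from liver with loess (adjusted p = 0.000715, limma) and higher without it, at 0.51 (adjusted p = 0.00179, limma). With the intensity left unrestored, the calls against liver on Egf, Slc8a1, Fxyd2, Scnn1a, Scnn1g and Slc26a4 were lost, and with global loess those on Fxyd2 and Scnn1g. Several were also lost when 1 array was left out. The calls on Slc26a4 (-0.37 ± 0.13) and Scnn1g (-0.39 ± 0.13) were lost with any of 9 and 8 arrays left out, the call on Fxyd2 (0.31 ± 0.10) with any of 6, that on Egf (-0.37 ± 0.11) with any of 4 and that on Slc8a1 (-0.32 ± 0.096) with either of 2. For Slc26a4 these were kidney arrays 2 to 6 and liver arrays 1, 3, 4 and 5 (adjusted p from 0.0538 to 0.118, limma). For Scnn1g they were kidney arrays 1, 4, 5 and 6 and liver arrays 1, 4, 5 and 6 (adjusted p from 0.0507 to 0.103, limma). For Fxyd2 they were kidney arrays 4 to 6 and liver arrays 1, 2 and 5 (adjusted p from 0.0515 to 0.108, limma). For Egf they were kidney array 4 and liver arrays 2, 4 and 6 (adjusted p from 0.0508 to 0.0733, limma), and for Slc8a1 kidney array 4 and liver array 1 (adjusted p from 0.0507 to 0.0516, limma). Against the mean of brain and liver, 5 genes were higher and 9 lower (12.7% and 12.4% of all features, 25.1% together).

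Other genes of the same pathways, none of them among the 31, were taken as 6 lists, with kidney calls after loess to be read against 20.0% higher and 19.8% lower among all features. Of 11 genes of WNK and SPAK signalling and cation-chloride cotransport, 0 were higher and 4 lower (Oxsr1, Wnk2, Slc12a2 and Ppp1r1a; 0 were higher at an unadjusted p under 0.05, limma), with a median of 0.048. Oxsr1, the kinase closest to Stk39 in the same pathway, was at -0.40 ± 0.15 (adjusted p = 0.000609, limma) with loess and -0.51 without it, so that it was lower in DBA/2J where Stk39 was higher. Slc12a2, the sodium-potassium-chloride cotransporter of basolateral membranes, was lower both ways, at -0.25 ± 0.096 and -0.29. Of 16 genes of chloride, magnesium and calcium handling, 5 were higher and 4 lower, with a median of 0.047. Among them the vitamin D receptor Vdr, at 0.42 ± 0.22 with loess and 0.75 without, and the tight-junction protein Cldn14, at 0.47 ± 0.29 and 0.61, were higher both ways. S100g, a calcium buffer of vitamin D target cells, was at -0.60 ± 0.12 with loess and turned to 0.22 without it.

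Of 16 genes of sodium channel regulation and aldosterone response, 7 were higher and 4 lower, with a median of 0.058. The steroid-induced genes Klf9 and Tsc22d3 were lower with loess, at -0.47 ± 0.12 and -0.44 ± 0.13, and at 0.21 and 0.096 without it, not called. Usp2, a deubiquitinase that acts on the sodium channel, was higher with loess, at 0.67 ± 0.29, and not called without it, at 0.13. Of 21 genes of vasopressin signalling and water transport, 6 were higher and 6 lower, with a median of 0.0086. The urea transporter genes had opposite signs under both treatments. Slc14a1 was higher, at 0.48 ± 0.14 and 0.61, and Slc14a2, of the inner medullary collecting duct, was lower, at -0.42 ± 0.22 and -0.76. Of 18 genes of the proton pump and acid-base transport, 3 were higher and 2 lower, with a median of 0.025. The pump accessory subunit Atp6ap2 was higher both ways, at 0.42 ± 0.14 and 0.45, and the carbonic anhydrases Car4 and Car15 were lower with loess only, at -0.59 ± 0.17 and -0.59 ± 0.085. Of 28 transcription factors and polarity genes, 7 were higher and 7 lower, with a median of -0.078. Only the nephric-lineage factor Pax2 is named of these. It was higher both ways, at 0.42 ± 0.094 and 0.25, and does not stand for the list.

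Markers of other kidney cells moved in both directions beside the distal nephron genes in kidney. With loess, 10 of 35 proximal tubule markers were higher and 5 lower, with a median of 0.079. These counts and those of the lists that follow stand against 20.0% of all features higher and 19.8% lower with loess. Without loess 31 of those 35, which are bright spots with a median kidney percentile of 93.4, were higher, against 32.0% of all features, with a median of 0.60. With loess, 2 of 13 podocyte and glomerulus markers were higher and 1 lower, 2 of 14 endothelial markers higher and 3 lower, and 2 of 12 fibroblast and smooth muscle markers higher and 6 lower. Of 11 macrophage and lymphocyte markers 0 were higher (0 at an unadjusted p under 0.05, limma) and 4 lower, of 13 adipocyte and adrenal cortex markers 4 were higher and 4 lower, and of 11 thin limb, papilla and urothelium markers 2 were higher and 4 lower. The medians of these 6 lists were 0.079, -0.11, -0.14, -0.11, 0.038 and -0.005 in that order, and the 7 erythrocyte markers had a median of -0.14. The part of other cell types in the ratios of the distal nephron genes was not tested.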

How the data were processed

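RNA of DBA/2J and C57BL/6J was compared on 6 two-colour arrays each for whole brain, kidney and liver. The authors deposited log2 ratios per spot, and per the labels the spots were quantified with Spot and normalised by print-tip lowess in limma. The 23040 spots included 1275 at 0 on every array, which were left out. Every value of the other 21765 spots (100%) equalled the log2 of 1 whole number over another (tolerance 1e-12), with array medians from -1.65 to 0.16, so they were treated as not yet normalised. This differs from what the design had allowed for as the first case, in which deposited values are kept as they are. For the background correction and scanner settings the sources used here give nothing.

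Continued fractions returned these whole numbers, up to 65535. Their common factor was estimated from the other arrays of the tissue (assumed log2 SD 0.4). Ratios were then normalised in limma 3.58.1 (R 4.3.3; Python 3.11.15, pandas 2.3.3, numpy 2.4.6) by print-tip loess in 48 blocks of 480 spots (span 0.3, 4 iterations). Spots with the same single gene symbol of the platform annotation, updated by Entrez identifier through RefSeq GRCm38.p6 (15964 spots matched), were averaged. Of the spots, 16642 had 1 symbol, 134 several and 4989 none. Mean ratios were tested against 0 with lmFit and eBayes per tissue, and tissue differences as contrasts over 18 arrays, with Benjamini-Hochberg adjustment over 20218 features and a threshold of 0.05. No features were filtered. The procedure was also run on simulated data made under its own assumptions, among them the log2 SD of 0.4. That run could not test whether those assumptions hold for these arrays. Arrays carry no dye swap, and 6 arrays limit the precision.

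All 31 distal nephron genes were reported. Of the genes outside them, those named are up to 4 called genes per pathway list, Glo1, and all 7 erythrocyte markers, which were added after their values were seen. Members, lists and tests were chosen with earlier results of these data known. Same-numbered arrays of different tissues did not deviate together (r from -0.23 to 0.16 over 18 pairs, 2 above 0.1), so the numbers were not taken to pair arrays. The alternatives were no loess, global loess, intensity left as the reduced ratio gives it, no dimmest 25% of features or spots above 60000, each spot alone, each array left out, 1 fit of 18 arrays, a replicate block, and 1 averaged value per tissue.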

Additional observations from a re-analysis of the deposited data

Results flagged for a closer look

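A single array stood apart from the other 5 in 15 of 93 sets of 6 arrays (31 genes in 3 tissues, after loess), where its gap to the nearest array exceeded 0.625 of the range. Among sets of independent, normally distributed values about 5% would do so. The share among all features is not given here, so no excess for these genes can be read from this count. In brain the log2 ratios of these arrays were Ptger3 0.47 on array 1, Egf -0.28 on array 2, Slc12a3 0.38 on array 4, Kcnj16 0.25 on array 1, Slc8a1 -0.53 on array 1, Scnn1b 0.53 on array 4, Aqp4 -0.47 on array 2, Sgk1 -0.54 on array 4. In kidney they were Calb1 -0.50 on array 3, Fxyd2 0.38 on array 6, Sgk1 0.15 on array 3. In liver they were Fxyd2 -0.48 on array 1, Aqp3 0.69 on array 2, Sgk1 -1.02 on array 2, Rhcg -0.58 on array 2.

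The strain ratio differed between tissues, by a limma contrast over 18 arrays after loess, in 25 of 62 comparisons, 11 of 31 against brain (22.6% of all features) and 14 of 31 against liver (18.2% of all features). Kidney minus brain gave Umod -0.82, Kcnj1 -0.62, Egf -0.46, Stk39 1.23, Scnn1a -0.63, Scnn1b -0.38, Aqp4 0.86, Hsd11b2 0.34, Slc4a1 -0.34, Slc26a4 -0.51, Rhcg -0.50 on the log2 scale. Kidney minus liver gave Umod -0.80, Ptger3 1.23, Egf -0.37, Slc12a3 -0.49, Stk39 0.56, Slc8a1 -0.32, Fxyd2 0.31, Atp1b1 -0.54, Scnn1a -0.60, Scnn1g -0.39, Aqp4 0.64, Hsd11b2 0.46, Slc26a4 -0.37, Car2 0.60. Stk39, Aqp4 and Hsd11b2 were called in the same direction without loess in both contrasts.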

How the results depend on the processing

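Omitting loess changed most. Reversed signs are listed in this paragraph only for genes called with loess, without it or both. Other genes, called neither way, also changed sign, in kidney Fxyd4, Gata3 and Tfcp2l1. In kidney 17 genes were then higher and 6 lower (all features 6468 and 6645), with a median of 0.25, and the sign reversed for Umod 0.11, Ptger3 -0.39, Egf 0.56, Slc12a3 0.29, Wnk4 0.72, Calb1 0.64, Scnn1a 0.15, Aqp2 0.34, Sgk1 0.27, Foxi1 0.23, Slc26a4 0.12, Rhcg 0.25, Car2 0.70. Kidney minus brain gave 12 higher and 0 lower (1 at an unadjusted p under 0.05, limma), 3562 features higher, a median of 0.20, and reversed Egf 0.43, Slc12a3 0.35, Wnk4 0.44, Scnn1a 0.063, Slc26a4 0.098, Rhcg 0.0051. Kidney minus liver gave 14 higher and 1 lower (features 4418 and 4870), a median of 0.33, and reversed Umod 0.019, Egf 0.50, Slc12a3 0.15, Wnk4 0.42, Calb1 0.54, Atp1b1 0.51, Scnn1a 0.058, Slc26a4 0.15. Kidney minus the mean of both gave 14 higher and 1 lower (22.9% and 25.3% of all features). In brain 4 and in liver 8 were lower (9.32% and 13.2%). The cause was not tested.

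With global loess 3 genes were higher in kidney (15.8% of all features), 3 in kidney minus the mean of both (9.42%), 1 was lower in brain (6.92%) and the liver median was 0.056. With the intensity unrestored 7 were lower in kidney (17.8% of all features), 2 in kidney minus brain (1539 features, 7.61%; median -0.066), 3 in kidney minus liver (8.83%) and 2 in kidney minus the mean of both (11.2%). Without dim and bright features 3 were lower in liver, where 18 of the 31 genes were left to test. Car2 and Scnn1b were among those left out, and no tested gene lost a call. The share among all features left after this filter is not given here, so no excess can be read from that count. In 1 fit of 18 arrays 2294 features were higher in brain. With 1 averaged value per tissue 0 genes and 0 features were higher and 0 and 0 lower in kidney minus the mean of both (2661 features at an unadjusted p under 0.05, limma). That fit sets 1 kidney value against 2 others, a design that could hardly pass the threshold, so these counts say nothing about stability.

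Leaving out 1 array gave 0 to 1 genes higher in brain, a brain median from -0.056 to 0.0019, 728 to 1876 features higher and 576 to 1459 lower in brain, 1376 to 2229 features higher in liver, 3 to 6 genes higher and 12 to 13 lower in kidney (16.0% to 19.1% and 16.1% to 18.8% of all features), and 4 to 7 lower in kidney minus liver (5.88% to 8.75%). With the replicate block, kidney minus brain again gave 3 higher and 8 lower, and kidney minus liver gave 5 higher and 8 lower. The shares among all features with the block are not given here, so no excess can be read from these counts. Under the replicate block, Fxyd2 (0.31, adjusted p = 0.0662, limma) and Scnn1g (-0.39, adjusted p = 0.0619, limma) lost their calls against liver and Foxi1 (-0.40, adjusted p = 0.0270, limma) gained one. No other call on the 31 genes changed in these contrasts.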
